A study of Mus musculus with 3 samples.

Results

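Wnt and Notch are cell-to-cell signalling pathways, and their genes were followed in RNA bound to tagged ribosomes of the adult mouse cerebral cortex. Members were defined by gene symbol, and the choice was made with earlier results of these data known. They are the Wnt, Fzd, Sfrp, Dkk, Dvl, Axin, Notch, Dll, Jag, Hes and Hey families together with Lrp5, Lrp6, Lef1 and Rbpj. The rule found 64 genes among the 32531 gene symbols of the deposited files, and genes without a count stayed in. The mice carried the Htr3a-Cre driver line NO176 and the Rosa26-LSL-EGFP/Rpl10a allele, so that cells that have expressed Cre make the ribosomal protein Rpl10a fused to EGFP. Anti-EGFP antibodies pulled the tagged polysomes out of homogenised whole cortex, the TRAP method. There was 1 group of 3 immunopurified libraries, replicates 1, 2 and 3, and unpurified cortex was not analysed here. Every comparison therefore sets genes against other genes of the same libraries, or the libraries against each other. Whether each replicate came from its own animal is not stated, so p-values reflect the spread between 3 libraries and this may be technical. Any cell that has expressed Cre at some time keeps the tag, so the tagged cells need not all express Htr3a in the adult.

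Wnt proteins are lipid-modified ligands that bind Frizzled receptors. In the canonical branch the receptors act with the coreceptors Lrp5 and Lrp6, and Dishevelled proteins (Dvl) then hold back an Axin-based complex that otherwise destroys beta-catenin. Notch receptors are cut after they meet a Delta-like or Jagged ligand on a neighbouring cell. The freed intracellular part joins the DNA-binding protein Rbpj and switches on repressors of the Hes and Hey families. In the developing brain both pathways steer patterning and the choice between progenitor and neuron, and in the adult both have been tied to synapses and to glial and vascular cells.

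Gene counts summed to between 13951332 and 14461053 per library. Levels are given as TPM, in which counts are divided by exon length and then set to a common library total, so that genes can be compared. A count of 0 allows up to 3 counts, or 0.209, 0.215 and 0.207 counts scaled to library size (CPM) in replicates 1, 2 and 3, and these floors cover counting error only. GABAergic markers had a median of 182 ± 24.1 TPM (SD, n = 3, here and below) and Htr3a class markers one of 302 ± 40.1 TPM, and all 8 genes of each list reached 1 TPM in 3 of 3 libraries. Excitatory neuron markers stood at a median of 83.1 ± 3.22 TPM, oligodendrocyte markers at 31.1 ± 4.15 TPM and astrocyte markers at 12.3 ± 2.02 TPM. The medians of the precursor, microglial, mural, endothelial and ependymal or choroid lists lay between 0.612 and 6.40 TPM. The RNA thus held transcripts that serve as markers of other cell types, and which cells they came from was not tested. With purified bulk RNA a rare cell type with a high level cannot be told apart from a common one with a low level.

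Most Wnt and Notch genes were detected, few of them at high levels. Of the 64 members, 30 reached 1 TPM in 3 of 3 libraries, a share of 46.9%, against 57.6% of all protein-coding genes with a known exon length. No count in any library was found for 5 members, a share of 7.81%, against 24.3% of protein-coding genes. These were Wnt3a and Wnt8b, the inhibitors Sfrp5 and Dkk4, and the repressor Hes2. A further 11 members had fewer than 10 counts in all 3 libraries together.

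Each of the 48 members with at least 10 counts was set against the median gene of the same library, which stood at 15.3, 16.8 and 17.5 TPM in replicates 1, 2 and 3. Above the median gene stood 7 members (limma, adjusted p under 0.05, adjusted over all genes tested), or 14.6% of those tested, against 42.2% of all genes. Below it stood 36 members, or 75%, against 42.0% of all genes. The median difference of the 48 members was -2.62 on the log2 scale, against -0.00061 over the 14315 genes tested. The 7 members above were the secreted protein gene Dkk3, the signal transducer Dvl3, the repressor Hey1, the receptors Fzd3 and Fzd1, the decoy Sfrp1 and the ligand Wnt5a. They belong to 6 different families, and in each of the families other members stood below the median gene.

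**Figure D1:**
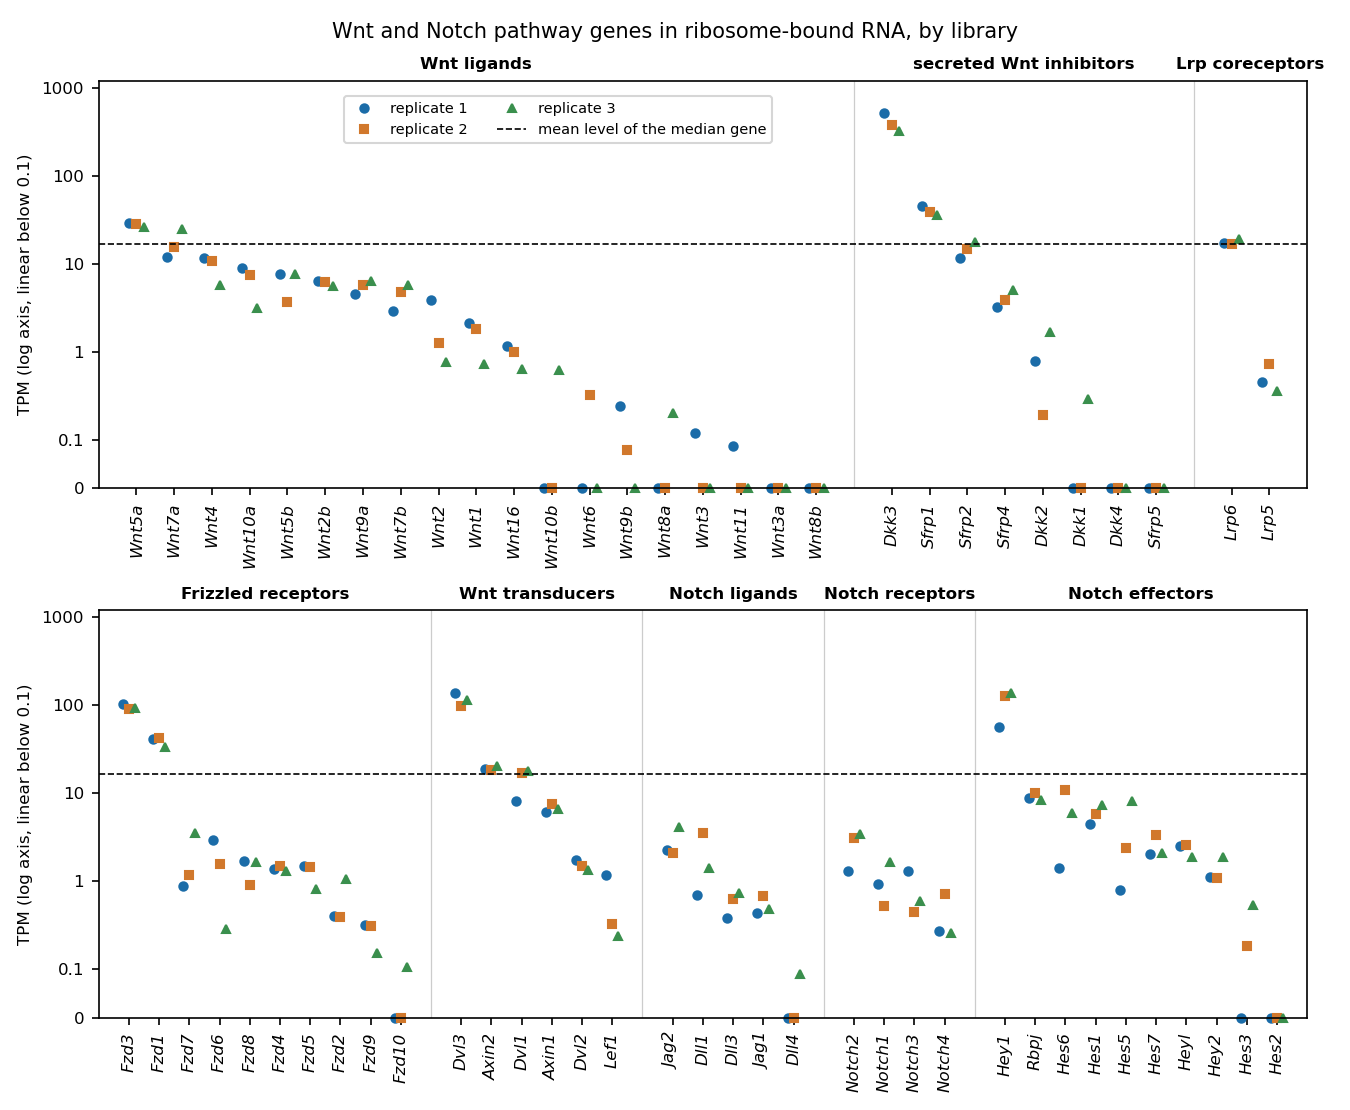
Level of all 64 members in TPM on a log axis that is linear below 0.1, with 1 symbol per library, grouped by role and ordered by mean within each role. The dashed line is the mean level of the median gene; Dkk3, Dvl3, Hey1 and Fzd3 stand far above it in all 3 libraries, and 5 members are at 0 in all 3.

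Among the 19 Wnt ligands, Wnt5a, a ligand known mainly for signalling without beta-catenin, had the highest mean level. It stood at 29.1, 27.8 and 25.7 TPM in replicates 1, 2 and 3 (27.5 ± 1.72), from 628, 612 and 581 counts, and the gene spans positions 28504750 to 28527448 of chromosome 14 (GRCm38). The 3 libraries lay close together, and the log2 difference to the median gene was 0.74 (SD 0.19; limma, adjusted p = 0.00984). Without replicate 2 that difference of 0.74 missed the threshold (limma, adjusted p = 0.0683). Wnt7a, which acts at synapses and, with Wnt7b, on brain vessels, stood at 11.9, 15.6 and 24.6 TPM. Its lowest library was replicate 1 and its highest replicate 3, and the mean difference of 0.0077 to the median gene missed the threshold (SD 0.44; limma, adjusted p = 0.975). Wnt7b stood at 2.89, 4.79 and 5.65 TPM with the same order of libraries.

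Wnt4 had 11.5, 10.8 and 5.70 TPM and Wnt10a 8.82, 7.34 and 3.09 TPM, and for both the lowest library was replicate 3. The log2 difference of Wnt4 to the median gene was -0.88 (limma, adjusted p = 0.0408), and the call was lost without any of the libraries, at -1.12, -1.0 and -0.52 without replicates 1, 2 and 3. Wnt5b at 6.23 ± 2.27 TPM, Wnt2b at 6.03 ± 0.373 TPM and Wnt9a at 5.53 ± 0.960 TPM also reached 1 TPM in 3 of 3 libraries. All of these and Wnt7b were below the median gene, with log2 differences from -0.88 for Wnt4 to -1.92 for Wnt7b (limma, adjusted p = 0.0408 for Wnt4 and lower for the others). With all genes that had a count tested, the calls of Wnt4, Wnt10a and Wnt5b were lost (limma, adjusted p = 0.375, 0.0959 and 0.0504). Wnt2 stood at 3.86 TPM in replicate 1 but at 1.26 and 0.768 TPM in replicates 2 and 3. Wnt1, a ligand of the midbrain boundary in the embryo, had 14, 12 and 5 counts, and Wnt16 had 14, 12 and 8. The other 8 ligands had under 10 counts in all: Wnt10b had 6 counts, all in replicate 3, Wnt9b 4 in all, Wnt6 had 2, Wnt3, Wnt8a and Wnt11 had 1 each, and Wnt3a and Wnt8b had none. Across all 19 ligands the median per library was 2.14, 1.26 and 0.728 TPM.

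The 8 genes of the Dkk and Sfrp families, grouped here as secreted Wnt inhibitors, were led by Dkk3, the highest of all 64 members. This divergent Dickkopf protein is not an established blocker of Lrp6 as Dkk1 is. Dkk3 stood at 510, 378 and 320.1 TPM in replicates 1, 2 and 3, from 4723, 3576 and 3106 counts, and its mean ranked 347 among the 20419 protein-coding genes with a length. Replicate 1 was the highest library and replicate 3 the lowest, and the log2 difference to the median gene was 4.58 (SD 0.44; limma, adjusted p = 0.000192). In GRCm38 it occupies chromosome 7 from 112116017 to 112159057. The other Dickkopf genes were near 0: Dkk2 had 8, 2 and 18 counts, Dkk1, the classical Lrp6 antagonist, had 0, 0 and 2, and Dkk4 none.

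Secreted frizzled-related proteins resemble the ligand-binding part of Frizzled and can take up Wnt proteins. Sfrp1 stood at 44.6, 38.9 and 35.9 TPM, above the median gene by 1.26 on the log2 scale (SD 0.26; limma, adjusted p = 0.00237). Sfrp2 stood at 11.6, 14.7 and 17.7 TPM, and its difference of -0.19 was short of the threshold (limma, adjusted p = 0.305). Sfrp2 passed below the median gene at -0.51 with the longest transcript as length (limma, adjusted p = 0.0325), at -1.21 without a length correction (limma, adjusted p = 0.00154) and at -0.47 with a minimum of 1 TPM (limma, adjusted p = 0.0395). Exons of an antisense gene overlap 16.1% of those of Sfrp2. Sfrp1 exceeded Sfrp2 in 3 of 3 libraries, with libraries that did not overlap and a log2 difference of 1.45 (SD 0.46). Sfrp4 stood at 4.0 ± 0.892 TPM and Sfrp5 had no count. Dkk3, which is not an established blocker of Lrp6, alone held 87.1% of the summed TPM of the 8 Dkk and Sfrp genes.

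The Frizzled receptors split into a pair of genes far above the others. Fzd3, a receptor needed for axon tracts in the forebrain, stood at 101, 91.1 and 92.8 TPM (95.1 ± 5.59), from 3582, 3282 and 3431 counts. Fzd1 followed at 41.5, 42.1 and 33.4 TPM (39.0 ± 4.85). Their libraries did not overlap each other, and both stood above the median gene, Fzd3 by 2.52 (SD 0.18; limma, adjusted p = 0.000280) and Fzd1 by 1.23 (SD 0.26; limma, adjusted p = 0.00265) on the log2 scale. Fzd3 lies on chromosome 14 from 65192449 to 65262463 and Fzd1 on chromosome 5 from 4753839 to 4758035 in GRCm38.

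Means of the next 5 Frizzled genes, Fzd7, Fzd6, Fzd8, Fzd4 and Fzd5, lay between 1.24 and 1.86 TPM, and the ranges of Fzd5 and Fzd8, close relatives of each other, overlapped. Only Fzd4 among these 5 reached 1 TPM in 3 of 3 libraries, at 1.35, 1.48 and 1.29 TPM. Fzd6, the nearest relative of Fzd3, stood at 2.94, 1.55 and 0.287 TPM, so that Fzd3 was higher in each library, by a mean log2 difference of 6.25 (SD 1.48). Fzd2 and Fzd7, the close relatives of Fzd1, lay below it by log2 differences of 5.90 (SD 0.89) and 4.56 (SD 1.18), with no overlap. Fzd2 had 4, 4 and 11 counts, Fzd9 had 2, 2 and 1, and Fzd10 had 1 in all.

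Coreceptors and transducers were uneven in the same way. Lrp6 stood at 17.0, 16.8 and 19.2 TPM and Lrp5 at 0.447, 0.730 and 0.355 TPM, a log2 difference of 4.91 (SD 0.53) without overlap, which was 3.63 with a pseudocount of 1. Lrp6 differed from the median gene by 0.099 (limma, adjusted p = 0.524), short of the threshold, but it passed above the median gene at 1.72 without a length correction (limma, adjusted p = 0.000381) and at 0.67 with all genes that had a count (limma, adjusted p = 0.0145). Dvl3 stood at 137, 97.8 and 115 TPM, above the median gene by 2.80 on the log2 scale (SD 0.32; limma, adjusted p = 0.000343). Dvl1 had 8.06, 16.7 and 17.9 TPM, with replicate 1 below both other libraries. Dvl2 had 1.73, 1.47 and 1.32 TPM, and exons of other genes, mostly Acadvl on the opposite strand, overlap 19.7% of its exons. On the log2 scale Dvl1 minus Dvl3 was -3.10 (SD 0.85) and Dvl1 minus Dvl2 was 3.08 (SD 0.81), with no overlap in either pair. The difference of -0.29 between Dvl1 and the median gene did not pass the test (limma, adjusted p = 0.324).

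Axin1 is the scaffold of the destruction complex, and Axin2 is its relative and a widely used target gene of beta-catenin. Axin2 stood at 18.5, 18.1 and 20.1 TPM and Axin1 at 6.07, 7.52 and 6.60 TPM. The libraries did not overlap, and Axin1 minus Axin2 was -1.48 on the log2 scale (SD 0.20). Axin2 differed from the median gene by 0.19 (limma, adjusted p = 0.237), short of the threshold, but passed it at 0.51 without a length correction (limma, adjusted p = 0.0242) and at 0.76 with all genes that had a count (limma, adjusted p = 0.00978). The difference of Axin1 was -1.29 (limma, adjusted p = 0.00130). Lef1, a DNA-binding partner of beta-catenin, had 28, 8 and 6 counts, or 1.16, 0.323 and 0.236 TPM, with replicate 1 the highest, and exons of an antisense gene overlap 13.7% of its exons. Endothelial cells are another known site of Lef1, and the 8 endothelial markers summed to 7.68, 6.49 and 6.13 TPM in the same libraries. Of the 8, 1 was at 1 TPM or more in all and none at 0 in all. The list was split: Slco1c1 fell from replicate 1 to 3, at 2.24, 1.99 and 1.74 TPM, and Pecam1 rose, at 0.175, 0.913 and 1.72 TPM. Tek was highest in replicate 2, at 0.905 TPM. The part of endothelial cells in the Lef1 level was not tested.

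**Figure D2:**
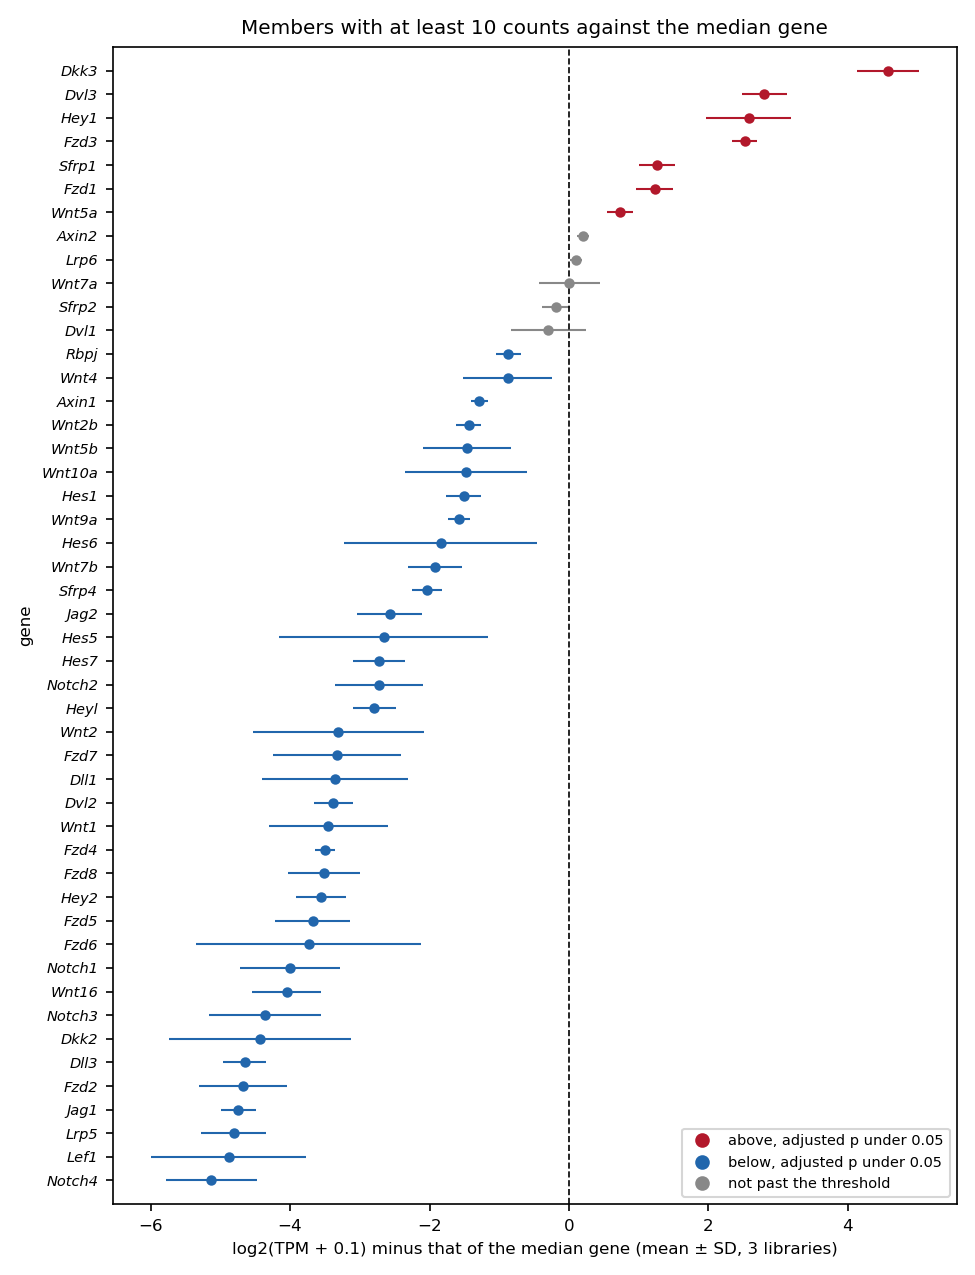
Difference in log2(TPM + 0.1) between each of the 48 members with at least 10 counts and the median gene of the same library, as mean and SD over 3 libraries, with 1 gene per row. The 7 genes at the top passed the test above the median gene, the next 5 in the order did not pass it, and the 36 below did.

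Notch receptors were all low. Notch2 stood at 1.31, 3.10 and 3.44 TPM from 39, 94 and 107 counts, Notch1 at 0.918, 0.524 and 1.65 TPM from 36, 21 and 68 counts. Notch3, a receptor of mural cells, had 29, 10 and 14 counts and Notch4, known from endothelium, 6, 16 and 6. Exons of noncoding genes on the opposite strand overlap 9.76% of those of Notch1. Each receptor stood below the median gene, with log2 differences from -2.72 for Notch2 (limma, adjusted p = 0.00114) to -5.13 for Notch4 (limma, adjusted p = 0.000257). Notch2 was above Notch1 in 3 of 3 libraries, yet their ranges overlapped. The difference between Notch1 and Notch3, 0.36 on the log2 scale (SD 0.90), was smaller than its spread, and that between Notch1 and Notch4 was 1.13 (SD 1.36). The mural markers summed to 29.3, 25.8 and 26.2 TPM, with 2 of 7 at 1 TPM or more in all libraries. Rgs5 alone stood at 19.3 ± 0.319 TPM, and the median of the mural list was 1.10 ± 0.300 TPM. Astrocyte markers summed to 775, 637 and 649 TPM, with all 12 at 1 TPM or more. Slc1a2 stood at 370 ± 43.8 TPM and Aldoc at 199 ± 18.4 TPM, against an astrocyte list median of 12.3 ± 2.02 TPM. The part of mural cells and astrocytes in the Notch receptor levels was not tested.

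Notch ligands were low as well. Jag2 led them at 2.24, 2.09 and 4.13 TPM and was the sole ligand with 1 TPM in 3 of 3 libraries. Jag1 stood at 0.436, 0.671 and 0.475 TPM, below Jag2 in each library without overlap (Jag1 minus Jag2 -2.17 on the log2 scale, SD 0.69). Dll1 had 8, 42 and 17 counts, with replicate 2 the highest, and exons of a long noncoding gene on the opposite strand overlap 20.5% of its exons. Dll3, a Delta-like protein that does not act as an activating ligand, had 3, 5 and 6 counts, and its range overlapped that of Dll1. Dll4, the ligand of sprouting vessels, had 1 count in all.

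Against these low receptors and ligands, 1 effector was abundant. Hey1, a repressor induced by Notch in many tissues, stood at 56.3, 127 and 137 TPM from 507, 1163 and 1288 counts, with replicate 1 below the others by more than the gap between them. Its locus is chromosome 3, 8663359 to 8667256, in GRCm38. Its log2 difference to the median gene was 2.58 (SD 0.61; limma, adjusted p = 0.00125). Hey2 stood at 1.11, 1.08 and 1.88 TPM and Heyl at 2.48, 2.57 and 1.90 TPM, so that Hey1 exceeded Hey2 by 6.13 (SD 0.60) and Heyl by 5.37 (SD 0.84) on the log2 scale, with no overlap. Hey1 made up 77.4% of the summed TPM of the 10 effector genes.

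Rbpj, the DNA-binding partner of all Notch receptors, stood at 8.85, 9.89 and 8.23 TPM. Its log2 difference to the median gene was -0.87 (limma, adjusted p = 0.00544), a call lost at -0.09 with the longest transcript as length (limma, adjusted p = 0.585) and turned to 0.65 above without a length correction (limma, adjusted p = 0.0142). Its merged exons cover 12750 nt and its longest transcript 5485 nt.

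Hes repressors were low, and Hes5 and Hes6 varied between libraries by more than counting error (chi-square, adjusted p = 1.22e-06 and 4.96e-08), while Hes1 did not pass that test (chi-square, adjusted p = 0.200). Hes1, the best-known Notch target of neural progenitors, stood at 4.45, 5.76 and 7.31 TPM. Hes5, expressed in radial glia and astrocytes, stood at 0.799, 2.35 and 8.13 TPM from 3, 9 and 32 counts, with exons overlapped by another gene over 31.8% of their length. Hes6, a relative that can oppose Hes1, stood at 1.40, 10.8 and 5.94 TPM from 7, 55 and 31 counts. The difference between Hes1 and Hes5, 1.15 on the log2 scale (SD 1.25), was smaller than its spread, as was that between Hes1 and Hes6, 0.33 (SD 1.25). Hes7, known from the segmentation clock, had 10, 17 and 11 counts, Hes3 had 4 in all and Hes2 none. The part of astrocytes in the Hes5 level was not tested.

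The 250 bases before the annotated start are printed for the 3 repressors whose window holds the core letters that Rbpj is known to bind, from RefSeq on build GRCm38.p6, since binding of Rbpj to such letters is the known route from Notch to Hes genes. Capitals mark the core, GTGGGAA or, on the other strand, TTCCCAC. A promoter entry was at hand for 44 of the 64 members, with 53 windows, and for 4 of the 9 Hes and Hey genes. The core was in 4 of the 53 windows, against 5.42% of all 32851 windows of the same length, and 3 of these 4 belong to Hes and Hey genes. Hes5 (chr4:154960673-154960922, + strand) held 2 copies, and Hes7 (chr11:69120203-69120452, + strand) and Hey2 (chr10:30842784-30843033, - strand) 1 each.
Hes5: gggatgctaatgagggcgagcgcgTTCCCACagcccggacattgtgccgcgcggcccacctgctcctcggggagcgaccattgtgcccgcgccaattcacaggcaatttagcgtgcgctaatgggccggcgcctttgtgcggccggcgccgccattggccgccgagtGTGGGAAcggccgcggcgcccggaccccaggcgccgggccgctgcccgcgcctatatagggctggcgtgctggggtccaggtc
Hes7: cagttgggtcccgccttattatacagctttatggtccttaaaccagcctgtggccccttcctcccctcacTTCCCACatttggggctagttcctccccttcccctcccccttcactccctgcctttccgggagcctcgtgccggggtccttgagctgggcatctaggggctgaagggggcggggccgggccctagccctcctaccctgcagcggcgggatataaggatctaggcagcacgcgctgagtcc
Hey2: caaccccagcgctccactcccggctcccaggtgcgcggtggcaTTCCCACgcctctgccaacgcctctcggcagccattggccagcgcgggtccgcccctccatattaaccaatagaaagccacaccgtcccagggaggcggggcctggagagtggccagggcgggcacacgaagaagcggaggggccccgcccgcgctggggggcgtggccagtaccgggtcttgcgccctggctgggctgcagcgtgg

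Counted from the start, the copies of Hes5 begin at -226 and -83 and lie on opposite strands, that of Hes7 at -180 and that of Hey2 at -207. Hes6, the other repressor with an entry, had no copy in either of its windows, and Wnt9a was the only further member with one. These matches describe letters and do not show binding, and the 4 genes with an entry all stood below the median gene, Hes6 at -1.84 (limma, adjusted p = 0.0356, a call lost at -1.09 without replicate 1), Hes5 at -2.66, Hes7 at -2.72 and Hey2 at -3.55 on the log2 scale. The Tcf and Lef core CTTTGA, or TCAAAG on the other strand, was found in 5 of the 53 windows, 1 each of Dkk1, Fzd1, Lef1, Wnt5b and Wnt11, against 13.8% of all windows. The Axin2 window did not hold those letters, and no member window held both cores.

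In the order of mean levels, the 30 members at 1 TPM or more in 3 of 3 libraries form 29 pairs of neighbours, of which 6 had libraries that did not overlap. These steps lay between Dkk3 and Dvl3, Fzd3 and Sfrp1, Fzd1 and Wnt5a, Wnt5a and Axin2, Rbpj and Axin1, and Heyl and Dvl2. The libraries of the other neighbours overlapped, and genes farther apart in the order were not compared except as 30 set pairs. All of these were pairs of relatives except Rbpj and Lef1, DNA-binding partners in different pathways. Of the 30 pairs, 22 had at least 10 counts for both genes, and in 15 of these the libraries of the pair did not overlap. With 3 libraries an exact sign-flip test cannot go below a two-sided p of 0.25, so the pairs carry a difference and SD but no p-value.

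How far the libraries differed was asked for each gene by a chi-square test of its counts against the counts that library sizes predict. Of 37 members with a mean of at least 1 CPM, 22 varied by more than counting error (adjusted over all genes tested), a share of 59.5%, against 74.3% of all genes. Of the 22, 9 were lowest in replicate 1, a share of 40.9%, against 41.6% of all genes that varied, and 11 were highest there, a share of 50%, against 39.8%. Without replicate 1, 14 of 36 members varied, against 42.7% of all genes, and with a minimum of 10 CPM 9 of 12 did, against 81.6%.

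Hey1, Dvl1, Notch2, Wnt7a, Wnt7b, Fzd7, Hes5, Hes6 and Dll1 were lowest in replicate 1. Between its highest and lowest library, after TMM scaling (a trimmed-mean correction of library size), Hey1 differed 2.35-fold, Notch2 2.54-fold, Dvl1 2.16-fold and Wnt7a 2.0-fold. The widest ranges were those of genes with few counts, with Fzd6 at 10.5-fold and Hes5 at 9.87-fold. Fzd6, Wnt10a, Wnt4, Dkk3, Sfrp1, Fzd1 and Wnt5a were lowest in replicate 3, with Wnt10a at 2.95-fold and Dkk3 at 1.64-fold. Dvl3, Fzd3, Wnt5b, Jag2, Notch1 and Notch3 were lowest in replicate 2, with Notch1 at 3.12-fold and Fzd3 at 1.13-fold. The other 15 members did not pass the test, and their highest library exceeded their lowest by 1.10-fold for Axin2 to 1.94-fold for Fzd8.

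Marker lists also differed between the libraries, though their genes did not all go the same way. Summed Htr3a class markers stood at 3877, 3020 and 3096 TPM in replicates 1, 2 and 3, with list medians of 348, 280 and 278 TPM, while Lamp5 of that list stood at 202, 241 and 260 TPM. Oligodendrocyte markers summed to 483, 324 and 286 TPM, with medians of 34.8, 31.8 and 26.6 TPM, while Mbp stood at 37.5, 37.0 and 37.3 TPM. Excitatory neuron markers summed to 901, 982 and 1133 TPM, but their medians were 86.6, 82.4 and 80.3 TPM. In that list Slc17a7, the vesicular glutamate transporter, stood at 158, 170 and 260 TPM, and Fezf2, a factor of deep-layer neurons, at 106, 92.4 and 80.3 TPM. All 8 Htr3a class genes, 9 of 10 oligodendrocyte genes and 9 of 10 excitatory genes reached 1 TPM in 3 of 3 libraries. The part of these cell types in the library differences of the members was not tested.

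**Figure D3:**
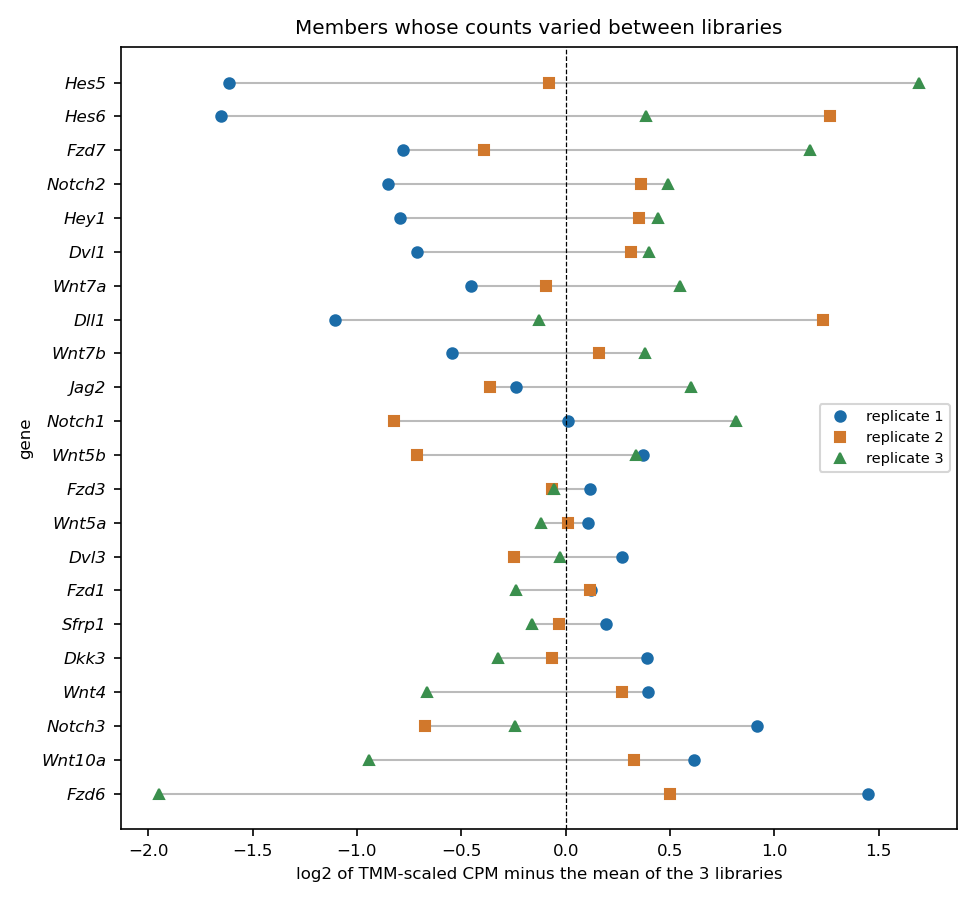
Counts scaled to library size (CPM after TMM scaling) of the 22 members that varied between libraries, on a log2 scale relative to each gene's mean, with 1 symbol per library. Hey1, Notch2 and Dvl1 have replicate 1 apart from the other libraries, and Hes5 and Fzd6 span the widest ranges.

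Other genes of both pathways gave the setting of these levels. Of 60 further Wnt genes, 57 had at least 10 counts, 22 of these stood above the median gene and 30 below (limma, adjusted p under 0.05), against 42.2% and 42.0% of all genes. The highest were Gsk3b, a kinase of the destruction complex, at 487 ± 56.1 TPM, its scaffold Apc at 338 ± 36.4 TPM, the kinase Gsk3a at 269 ± 11.1 TPM, beta-catenin itself (Ctnnb1) at 224 ± 75.2 TPM and its coactivator Bcl9 at 155 ± 12.7 TPM. Ctnnb1 stood at 140, 245 and 285 TPM, with replicate 1 lowest, as for Hey1. Gsk3b, Apc, Gsk3a and Bcl9 were instead highest in replicate 1. Porcn, which attaches the lipid to Wnt proteins, stood at 54.2 ± 6.24 TPM, whereas Wls, which carries them to the cell surface, stood at 2.97 ± 0.50 TPM; both were picked after their values were seen. Lowest were the inhibitors Sost, with 3 counts, and Notum, with 2, and the receptor kinase Ror1, with 3.

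Of 37 further Notch genes, all with at least 10 counts, 20 stood above the median gene and 10 below. Over all genes tested the shares were 42.2% above and 42.0% below (limma, adjusted p under 0.05). Dner, a neuronal surface protein with EGF repeats that has been proposed as a Notch ligand, led at 497, 395 and 356 TPM. It was followed by Fbxw7, a ubiquitin ligase subunit that marks Notch for decay, at 166 ± 38 TPM, Dtx3 of the Deltex family at 138 ± 16.4 TPM, the gamma-secretase subunit Psenen at 97.3 ± 3.28 TPM and the ubiquitin ligase Itch at 69.6 ± 6.89 TPM. The fringe glycosyltransferases Lfng and Mfng, which tune receptors to their ligands, were lowest with 10 and 11 counts, ahead of which came Dtx2 at 1.36 ± 0.544 TPM. The remaining fringe gene, Rfng, named after its values were seen, stood at 19.8, 32.7 and 38.2 TPM in replicates 1, 2 and 3. It was above the median gene by 0.82 on the log2 scale (limma, adjusted p = 0.0187). The median difference to the median gene was 0.64 on the log2 scale for these Notch genes, against -2.75 for the 16 tested Notch members. For the Wnt genes it was -0.97, against -1.53 for the 32 tested Wnt members.

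**Figure D4:**
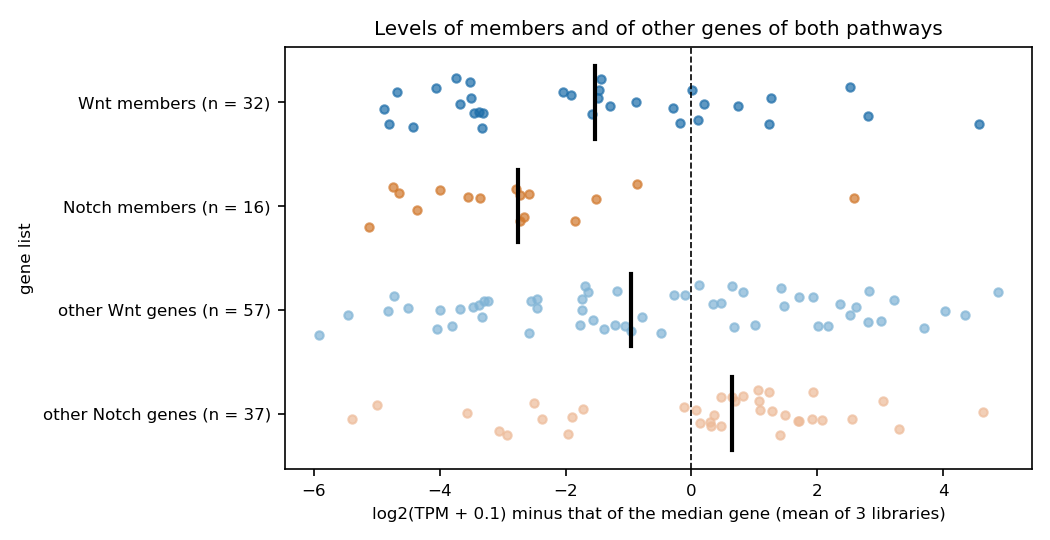
Difference in log2(TPM + 0.1) to the median gene, as the mean of 3 libraries, for tested members and for other genes of both pathways, with 1 point per gene and the list median as a black bar. Notch members have a median of -2.75 with Hey1 alone above 0, while other Notch genes have a median of 0.64.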

How the data were processed

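Members and lists were chosen with earlier results of these data known. Per library, 1 deposited file gives raw counts of reads for every gene symbol. The submitters' processing notes list STAR 2.0.0e, HTSeq and mm10 but no roles for them. How genes were annotated, counted and assigned to a strand is not given in the sources used here, and overlapping genes cannot be told apart. The 6 lines that name no gene stayed out. They held 11.8%, 11.0% and 13.1% of records on no feature, 2.49%, 2.83% and 2.68% ambiguous and 11.2%, 11.3% and 13.1% without a unique alignment in replicates 1, 2 and 3.

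TPM was computed here from the deposited counts and merged exon lengths of GENCODE M21 (GRCm38, the assembly of mm10). A length was found directly for 23155 symbols, through an older name for 737 and not at all for 8639. The share of counts on symbols with a length was 97.0%, 97.1% and 94.7%.

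Levels are log2(TPM + 0.1), which understates differences of genes near 0. For each gene with at least 10 counts in all, the difference to the median gene of the library was tested against 0 with limma 3.58.1, two-sided, adjusted by Benjamini-Hochberg over all genes tested. Variation between libraries was tested by chi-square on counts with TMM library sizes from edgeR 4.0.16, adjusted over all genes averaging 1 CPM or more. The threshold was 0.05. DESeq2 1.42.0 gave alternative size factors. Both tests were also run on simulated counts. For levels the spread beyond counting error was set equal for all genes, and for variation there was counting error alone. The spread of the real counts was not copied, so these runs do not show how often the tests err on these data. Every member is accounted for, those with 1 TPM in 3 of 3 libraries by TPM and others by counts or TPM. Of the other pathway genes, the rule named the 5 highest and 3 lowest of each list. Scripts ran in R 4.3.3 and Python 3.11.15, with matplotlib 3.10.9 for the plots, pandas 2.3.3 for tables and NumPy 2.4.6.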

Additional observations from a re-analysis of the deposited data

How the results depend on the processing

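Counts of members above and below the median gene, and of other Wnt and Notch genes above it, stayed within 1.5 times their value under other pseudocounts, lengths, filters, gene sets and an unmoderated fit. Without 1 replicate, members above ranged from 6 to 7, members below from 34 to 35, other Wnt genes above from 19 to 21 and other Notch genes above from 16 to 18. The number of members varying between libraries ranged from 14 to 23 without 1 replicate and was 9 with a minimum of 10 CPM, where fewer genes are tested. Testing any gene with a count raised all differences to the median gene by 0.57, and a minimum of 1 TPM shifted them by -0.28 (log2). Signs turned for 6 members, of which Rbpj alone had been called: Rbpj went to 0.65 without the length correction. Wnt7a went to -0.42 with the longest transcript, -0.47 without the length correction, -0.27 with a minimum of 1 TPM, -0.095 with protein-coding genes, and without 1 replicate it ranged from -0.23 to 0.19. Axin2 went to -0.084 and Lrp6 to -0.18 with a minimum of 1 TPM, and Lrp6 to -0.0043 with protein-coding genes. With any gene that had a count, Dvl1 went to 0.27 and Sfrp2 to 0.38, and without 1 replicate Dvl1 ranged from -0.46 to 0.016. Without the length correction or with any counted gene, Axin2 and Lrp6 passed above the median gene, and Sfrp2 passed below it at -0.51 with the longest transcript, -1.21 without the length correction and -0.47 with a minimum of 1 TPM. The cause was not tested. Under the unmoderated fit 7 members lost their call: Fzd6, Hes5, Hes6, Wnt2, Wnt4, Wnt5b and Wnt10a. With any gene that had a count, 5 members lost their call: Wnt4, Rbpj, Hes6, Wnt10a and Wnt5b. Their adjusted p-values were 0.375, 0.142, 0.115, 0.0959 and 0.0504 in that order (limma). Of the pairs of relatives, 3 turned sign under some alternative, Fzd5 and Fzd8, Notch1 and Notch3, and Hes1 and Hes6, all with differences smaller than their SD. Hes1 minus Hes6 was -0.30 without replicate 1. Across the 30 pairs, 20 values under an alternative moved by more than the SD of the pair, and 160 did not. Of the 20, a pseudocount of 1 gave 10, no length correction 7 and the longest transcript 3. Without the length correction Sfrp1 minus Sfrp2 went to 2.46 and Axin1 minus Axin2 to -2.0. With a pseudocount of 1, Jag1 minus Jag2 went to -1.29. No paired analysis was possible because there is 1 group. At this depth 16 members had under 10 counts and no test.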
